A study of Mus musculus with 2 samples.

Results

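Groups of 2 to 4 neighbouring PHF19 peaks in mouse embryonic stem cells are described here. The peaks come from the authors' deposited list of 3445 peaks, in which neighbours on a chromosome were joined wherever the gap from the end of one to the start of the next was at most 10 kb. Stretches of 2, 3 or 4 joined peaks were kept, which gave 269 groups of 2, 84 groups of 3 and 50 groups of 4. These 403 groups hold 990 peaks, or 28.7% of the list; they were chosen by the authors' peak calls on the ChIP reads and by the distance between peaks. Chromatin immunoprecipitation with sequencing (ChIP-seq) was carried out in E14 cells, an embryonic stem cell line kept pluripotent with the cytokine LIF on gelatin-coated plates. The PHF19 ChIP group is 1 library, made with a custom rabbit polyclonal antibody against PHF19, and the input group is 1 library made without an antibody. No library without PHF19 was analysed here, so enrichment shows what the antibody recovered. With 1 library per group no value has a replicate error, and every test compares the reads of these libraries, not conditions. Positions refer to mm8; no annotation of that build was used, so peaks are named by position and not by gene.

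PHF19 is a Polycomb-like protein, an accessory subunit of the Polycomb repressive complex PRC2, which methylates lysine 27 of histone H3. Its Tudor domain binds histone H3 methylated at lysine 36, a mark of transcribed gene bodies. In embryonic stem cells PRC2 is known for sitting at CpG islands of silent developmental genes, where its mark can spread over neighbouring nucleosomes. A peak caller can divide one such enriched domain into several peaks, and neighbouring peaks can also be separate sites.

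The ChIP library held 21957101 distinct reads and the input 24496988, each counted once per position and strand. Fold below means the share of ChIP reads in a region over the share of input reads there. Intervals are exact 95% intervals for counting error only; amplified reads are not independent molecules, and pooled intervals treat regions as independent, so they are too narrow. The list was called on these ChIP reads, so enrichment inside peaks is a description and was not tested.

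Peaks of the small groups were somewhat wider and more enriched than isolated peaks. Their median width was 1537 bp, against 1352.5 bp for the 2044 isolated peaks and 1616 bp for the 411 peaks in stretches of 5 or more. The median fold was 3.78 in groups of 2, 4.25 in groups of 3 and 4.42 in groups of 4, against 3.48 in isolated peaks and 4.27 in stretches of 5 or more. A fold of at least 4 was measured in 500 of the 990 peaks (50.5%), where the background over the whole list was 40.6%. This is the contrast that made the list, and nothing is read from the difference. Pooled over all reads, the member peaks held 101617 reads of the ChIP and 30120 of the input (fold 3.76, 3.72 to 3.81).

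Input was raised in some of the groups, and this touches the pooled values. An input density of 2 times the chromosome median or more was found in 50 of the 990 member peaks (5.05%). The share was 7.17% over the whole list and 8.71% in isolated peaks, so counted per peak it was not higher in the groups. Counted per group it was not lower: at least 1 peak had such a density in 41 of the 403 groups, against 178 of the 2044 isolated peaks. A group has more peaks in which it can occur. The widest of these groups, on chromosome 8 from 126423049 to 126510903, consisted of a pair of peaks 60 bp apart, where 6624 ChIP reads against 3017 from input gave 2.45-fold enrichment (2.35 to 2.56). Its input reached 4.06 times the median. In a group of 4 at chromosome 6, 47666497 to 47708306, the fold was 1.95 (1.87 to 2.04), with input at up to 9.15 times the median. Without the 41 groups, the pooled fold of the members was 4.29 (4.23 to 4.36), and that of the groups of 4 was 4.45 in place of 3.44.

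Many of the gaps were far shorter than the joining distance. The 587 gaps had a median length of 603 bp, with quartiles of 154.5 and 2323 bp. Under 100 bp lay 109 gaps (18.6%), and under 500 bp lay 271 (46.2%). Groups of 2 spanned a median of 4.43 kb, of which peaks covered 86.4%, and groups of 4 spanned 13.1 kb, of which peaks covered 63.7%. In most groups the peaks therefore filled most of the stretch, and 239 gaps were at least 1 kb long.

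**Figure D1:**
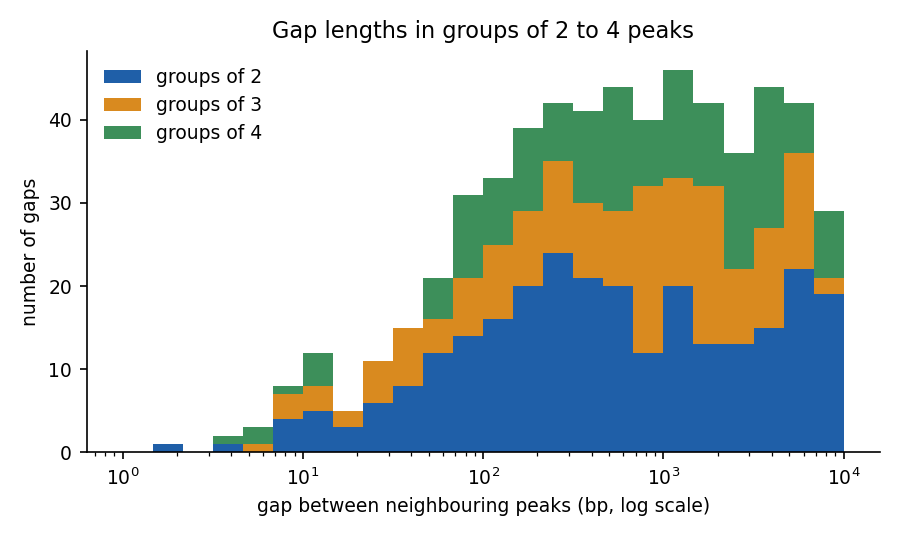
Number of gaps between neighbouring peaks by length in bp (log scale), stacked by group size. The 587 gaps run from 2 to 9763 bp with a median of 603 bp, and groups of 2, 3 and 4 each contribute both short and long gaps.

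The 3 groups of 2 with the most ChIP reads, outside raised input, all had gaps under 1 kb. On chromosome 2, peaks at 33450292 to 33460209 and 33460279 to 33467883 were only 69 bp apart. The first held 550 reads of the ChIP and 128 of the input (fold 4.79, 3.95 to 5.86). The second held 419 and 109 (fold 4.29, 3.47 to 5.34). The intervals overlap widely, and the gap held 0 ChIP reads and 1 input read, too few to set it apart from the peaks. On chromosome 16, at 18494332 to 18506019, the folds of the paired peaks were 4.57 and 4.39, with a gap of 572 bp that held 12 ChIP reads and 1 input read. On chromosome 11, a broad peak of 9328 bp at 84335008 was enriched 4.41-fold (3.65 to 5.35), from 541 reads of the ChIP and 137 of the input. Its narrow neighbour of 1529 bp had a fold of 4.46 (2.55 to 8.27) from 64 and 16 reads. These neighbours differ in width and reads, while their folds lie within each other's intervals.

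Among groups of 3, the one on chromosome 7, from 137147001 to 137161719, held 726 reads of the ChIP against 171 of the input. Its peaks had folds of 5.74, 5.73 and 4.25 along the chromosome, with gaps of 12 and 268 bp. A group at chromosome 9, 62935162 to 62949659, joined a peak of 10724 bp with a fold of 4.61 (3.85 to 5.56) to a pair of small ones at 3.06 and 3.35. In another group, at chromosome 11, 85645106 to 85660516, the middle peak had a fold of 4.57 (3.72 to 5.65) and the outer ones 2.75 (2.08 to 3.66) and 2.68 (1.43 to 5.26). The middle peak's interval lies above that of the left peak but meets that of the right one, and neither neighbouring difference passed the test described next.

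The 3 groups of 4 with the most ChIP reads all lay on chromosome 2. The group at 71328153 to 71348019 had folds of 4.78, 2.85, 4.36 and 4.71. Its weakest peak, with 74 ChIP and 29 input reads, stood beside the strongest. In the group at 38158355 to 38180085, a peak of 12268 bp carried 636 of the 786 ChIP reads at a fold of 4.01 (3.39 to 4.76), and its small neighbours ranged from 2.34 to 6.14. The value of 6.14 (2.08 to 24.5) rested on 22 ChIP and 4 input reads. The group at 146872111 to 146887406 had folds of 4.46, 9.93, 5.04 and 4.75, and the value of 9.93 (5.15 to 21.4) rested on 10 input reads.

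Whether neighbouring peaks of a group differ in enrichment was tested with Fisher's exact test (two-sided) on the ChIP and input reads of both peaks. Which neighbour is higher is not fixed by the joining rule. Of the 587 neighbouring pairs in groups of 2 to 4, 1 passed at an adjusted p of 0.05 (Benjamini-Hochberg over all 943 neighbours of the list joined at 10 kb, where the background was 0.106%). At an unadjusted p under 0.05 there were 39 (6.64%), against a background of 6.04%, a share near the background. Both backgrounds include the 587 member pairs, and the first consists of the member pair that passed. In the 356 pairs of stretches of 5 or more, 0 passed and 18 (5.06%) had an unadjusted p under 0.05. The pair that passed lay in a group with raised input at chromosome 6. There the peak at 88154592 to 88157147 held 91 ChIP reads against 58 from input (fold 1.75, 1.25 to 2.48). The peak at 88158761 to 88167450 held 476 against 112 (fold 4.74, 3.85 to 5.88). The ratio of these folds was 2.71 (adjusted p = 0.00109, Fisher's exact test), and the input of the weaker peak was 2.52 times the chromosome median. The other 586 pairs did not pass, and without the groups of raised input 0 of 525 passed, with 28 at an unadjusted p under 0.05. By distance, the share at an unadjusted p under 0.05 was 5.15% of the 544 neighbours under 1 kb apart and 7.27% of the 399 at 1 to 10 kb, counting stretches of any size. Over all 3421 neighbouring peaks of a chromosome, however far apart, the background was 6.46%.

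Missing the threshold does not show that neighbours are equally enriched. The median ratio of the higher to the lower fold was 1.26 in groups of 2, but the median exact interval of that ratio ran from 0.541 to 3.22. The poorer input count of a pair had a median of 13 reads. Differences of 2-fold within single pairs were thus mostly not detectable at this depth. The folds of both peaks of a group of 2 were weakly related across the 269 groups, with Pearson's r of 0.32 on log2 folds and Spearman's rho of 0.30. Pearson's r was 0.26 in the 243 groups without raised input and 0.36 in the 67 groups with at least 20 input reads in both peaks. Between neighbours of the list over 10 kb apart it was 0.11. All these regions share both libraries, and the values are a description across regions. The wider peak had the higher fold in 168 of the 269 groups of 2 (62.5%), in 100 of 168 pairs of groups of 3 (59.5%) and in 75 of 150 pairs of groups of 4, against 544 of all 943 pairs (57.7%).

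**Figure D2:**
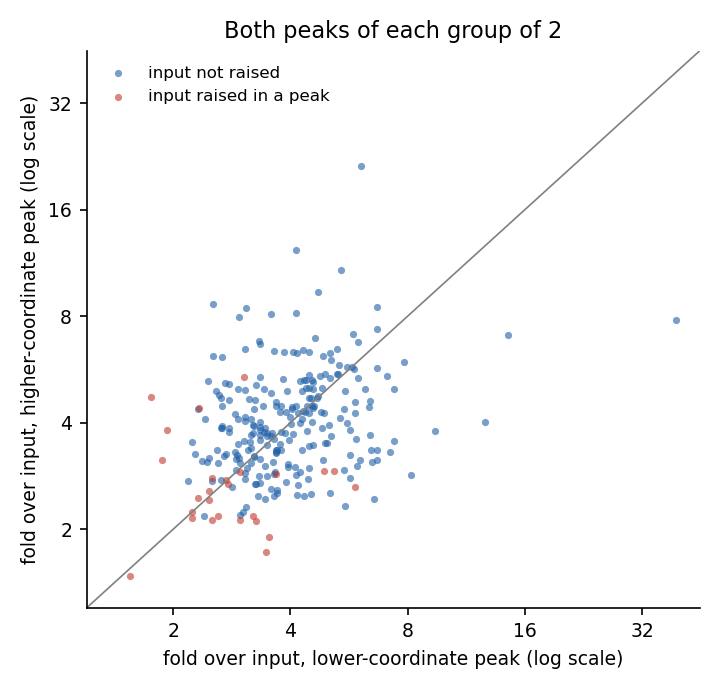
Fold over input of the lower-coordinate peak against the higher-coordinate peak for the 269 groups of 2 (both axes log scale); the line marks equal folds and red points are groups with raised input in a peak. Points scatter on both sides of the line, and the farthest point, at a fold of 39.0, rests on 1 input read.

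The stronger and the weaker peak of a group were compared in more than one way, because an order taken from the same reads forces a ratio of at least 1. Ordered and measured by fold, the median ratio of the strongest to the weakest peak was 1.26 in groups of 2, 1.71 in groups of 3 and 2.04 in groups of 4. In larger groups the strongest and weakest are picked from more peaks, so this ratio rises with group size by construction. Between neighbouring peaks, the median ratio of the higher to the lower fold was 1.26, 1.31 and 1.43. That ratio is also at least 1 by construction, and the poorer input count of a pair had medians of 13, 14 and 10 reads. For the strongest against the weakest, with the order from plus-strand reads and the ratio from minus-strand reads, the medians were 0.943, 1.12 and 1.18. With the strands exchanged they were 0.922, 1.10 and 1.09. Reads were also divided by even and odd position, a choice made after the strand values were seen. The medians were then 1.04 and 1.01 in groups of 3, but 0.938 and 0.932 without raised input, and 1.31 and 1.27 in groups of 4, or 1.27 and 1.24 without it. In groups of 2 the peak that was stronger in even positions was also stronger in odd positions in 135 of 269 groups (50.2%), and in groups of 4 the peak that was strongest in even positions was above the weakest in odd positions in 35 of 50 (70.0%) and, the other way round, in 32 of 50 (64.0%). The difference between group sizes was not tested.

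ChIP reads per kb of peak, which involve no input count, kept their order somewhat more often. Ordered on plus-strand and measured on minus-strand reads, the densest peak was above the sparsest in 161 of 269 groups of 2 (59.9%), 60 of 84 groups of 3 (71.4%) and 39 of 50 groups of 4 (78.0%). The median ratios were 1.07, 1.23 and 1.39. These densities are not corrected for input, so differences that the input shares remain in them. In larger groups the densest and sparsest are again picked from more peaks.

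The gaps themselves were enriched over input, and from 0.5 kb upwards their fold fell with gap length. Pooled over the 587 gaps, 17018 ChIP and 10310 input reads gave a fold of 1.84 (1.80 to 1.89), against 3.76 in the peaks. The peak caller left the gaps out on these same ChIP reads, so a lower fold than in the peaks follows from the calling. Gap levels and their change with length are descriptions. Gaps of 0.5 to 1 kb had a fold of 2.74 (2.45 to 3.07) and gaps of 1 to 2 kb 2.32 (2.16 to 2.49). In gaps of 2 to 4 kb it was 1.97 (1.87 to 2.07), in gaps of 4 to 7 kb 1.74 (1.67 to 1.82), and in gaps of 7 to 10 kb 1.45 (1.38 to 1.53). From 0.5 kb upwards each class lay below the one before it. The shortest gaps, under 0.5 kb, had a fold of 2.34 (2.07 to 2.64) from 819 ChIP and 391 input reads, and this value depended on where a read was placed: with unshifted reads it was 1.91.

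The density of both libraries changed with gap length. Up to 2 kb the ChIP density did not fall: it was 17.7 reads per kb in gaps under 0.5 kb, 19.7 in gaps of 0.5 to 1 kb and 20.5 in gaps of 1 to 2 kb, where input had 8.45, 8.04 and 9.87. The lower fold at 1 to 2 kb than at 0.5 to 1 kb thus went with more input reads per kb, not with fewer ChIP reads. In longer gaps ChIP reads per kb fell, to 14.9 at 7 to 10 kb, where input had 11.5. The peaks beside the longest gaps were also weaker, with a pooled fold of 3.52, against 4.04 beside gaps of 1 to 2 kb. In the middle 500 bp of each gap the fold was 2.28 (2.03 to 2.56) for gaps of 1 to 2 kb and 1.35 (1.09 to 1.66) for gaps of 7 to 10 kb, or 1.22 (0.953 to 1.56) without raised input, an interval that holds 1. Across the 239 gaps of at least 1 kb, gap fold and gap length had a Spearman's rho of -0.46, and gap fold and the fold of both neighbouring peaks one of 0.42. These gaps share both libraries and often a peak, so both values are descriptions.

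Gaps between stronger peaks had the higher pooled fold in each class of length. With gaps divided at the median peak fold of 3.90, those of 1 to 2 kb had a fold of 2.55 (2.32 to 2.81) between the stronger peaks and 2.04 (1.83 to 2.28) between the weaker. In gaps of 4 to 10 kb the values were 1.84 (1.75 to 1.94) and 1.47 (1.41 to 1.53). The intervals did not meet in either class, whereas in gaps of 2 to 4 kb, at 2.09 (1.94 to 2.26) and 1.86 (1.74 to 2.002), they did. This split was chosen after the data were seen.

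A gap fold of at least 2 was measured in 113 of the 239 gaps of at least 1 kb (47.3%), against a background of 48.9% over all 399 such gaps of the list. Single gaps held medians of 55 ChIP and 32 input reads and ranged from 0.705 to 7.81 in fold. The gaps with the largest folds and at least 20 ChIP reads were all under 2 kb. At chromosome 2, the gap from 115756215 to 115757219 held 28 reads of the ChIP and 5 of the input (fold 6.25, 2.38 to 20.7) between peaks at 5.95 and 3.30. At chromosome 4, the gap from 97268319 to 97269439 had a fold of 5.58 (2.28 to 16.4) between peaks at 4.14 and 4.46. On chromosome 14, the gap from 47588994 to 47590467 had 5.30 (2.44 to 13.2) between peaks at 5.95 and 5.36. The remaining ones, on chromosome 13 from 53481075 to 53482725 and on chromosome 5 from 75432843 to 75434232, had folds of 4.88 and 4.69. These 5 gaps were as enriched as the peaks beside them within counting error, and were picked for being the highest.

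Gaps were then set against the outer flanks of the same peaks. For each group of 2, the flanks were taken on the outer side of both peaks, each 0.5 of the gap length. Gap and flanks thus lie at the same distances from the nearest peak and have the same total length. The other peak of the pair is nearer to a base in the gap than to a base in the flanks, and this distance is not matched. By the joining rule no other peak lies within 10 kb of the pair. Over the 269 groups the gaps had a fold of 1.63 (1.57 to 1.69) and the flanks 1.38 (1.33 to 1.43), a ratio of 1.18 (1.12 to 1.24). Of the 102 groups with gaps of at least 1 kb, the gap was higher in 73 and lower in 29.

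The ratio was largest in gaps of 0.5 to 1 kb and smallest in the longest. It was 1.27 (1.002 to 1.60) in gaps under 0.5 kb, 1.82 (1.39 to 2.39) in gaps of 0.5 to 1 kb, 1.29 (1.09 to 1.54) in gaps of 1 to 2 kb, 1.19 (1.06 to 1.35) in gaps of 2 to 4 kb and 1.199 (1.10 to 1.31) in gaps of 4 to 7 kb. In gaps of 7 to 10 kb it was 1.07 (0.984 to 1.17), an interval that holds 1, and 1.03 without the chromosome 14 group described below. Input density was slightly lower in the gaps than in the flanks, at 11.1 and 11.8 reads per kb. In gaps of 0.5 to 1 kb this was more marked, at 6.61 and 10.4, and ChIP reads numbered 400 in these gaps and 346 in their flanks.

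**Figure D3:**
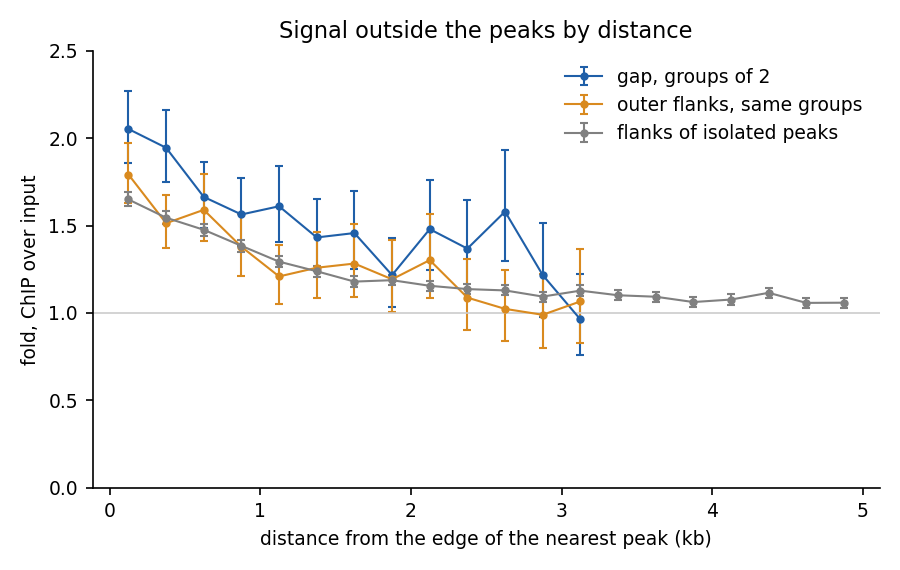
Fold over input in windows of 250 bp by distance (kb) from the edge of the nearest peak, in the gaps of groups of 2, in the outer flanks of the same groups and in the flanks of isolated peaks; bars are exact 95% counting intervals, and windows with under 20 groups are left out. In the first window the gap is at 2.05, the outer flanks at 1.79 and isolated peaks at 1.65, and the gap stays above the outer flanks out to 3 kb.

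By distance, the outer flanks lay close to those of isolated peaks, and the gap lay above both in the windows given next except the last. From 0 to 250 bp outside the peak edge the fold was 2.05 (1.86 to 2.27) in gaps, 1.79 (1.63 to 1.97) in outer flanks and 1.65 (1.61 to 1.69) beside isolated peaks. From 1000 to 1250 bp it was 1.61 (1.41 to 1.84), 1.21 (1.05 to 1.39) and 1.29 (1.26 to 1.33). Gap and outer flanks were closer from 500 to 750 bp, at 1.66 (1.49 to 1.86) and 1.59 (1.41 to 1.795). From 1750 to 2000 bp they nearly met, at 1.22 (1.04 to 1.43) and 1.19 (1.004 to 1.42). Each window pools the groups whose gap is long enough, 131 in the first and 65 at 1000 bp, so the windows do not hold the same groups. In the last window with 20 groups, from 3000 to 3250 bp, the gap was lower, at 0.964 (0.758 to 1.22) against 1.07 (0.831 to 1.37) in the outer flanks.

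A gap is flanked by a peak on either side, so the excess of both flanks was added for comparison. The outer flanks were extended to the whole gap length on each side, where their pooled fold was 1.31 (1.28 to 1.35). An excess over 1 of 2 times that size gives 1.63 (1.56 to 1.70), and the measured gap fold was 1.63 (1.57 to 1.69). By gap length, the added value and the measured gap fold were 2.26 and 2.23 in gaps of 1 to 2 kb, 1.94 and 1.80 in gaps of 2 to 4 kb, 1.45 and 1.56 in gaps of 4 to 7 kb, and 1.29 and 1.30 in gaps of 7 to 10 kb. Their intervals overlapped in every class of gap length, including gaps of 0.5 to 1 kb, where the added value was 2.76 (2.32 to 3.27) and the gap 3.46 (2.83 to 4.25). This sum was chosen after the gap values were seen, its interval covers counting error only, and overlap does not show that the values are equal.

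**Figure D4:**
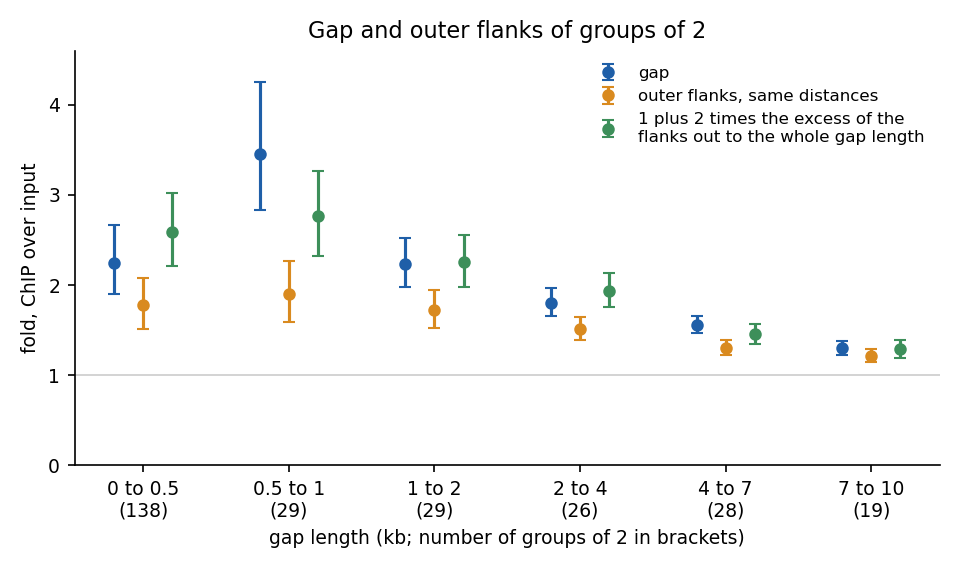
Fold over input in groups of 2 by gap length (kb, number of groups in brackets), for the gap and for the outer flanks at the same distances from the nearest peak. Also shown is 1 plus 2 times the excess of the flanks extended to the whole gap length. Bars are 95% counting intervals. From 0.5 kb upwards the gap falls from 3.46 at 0.5 to 1 kb to 1.30 at 7 to 10 kb and meets the interval of the added value in each class.

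Group by group, 1 of the 269 groups of 2 had a gap that differed from its flanks at an adjusted p of 0.05 (Fisher's exact test, two-sided, Benjamini-Hochberg over the 269 groups, background 0.372%). The groups tested are the members themselves, so this background and those in the next sentence are the members' own shares and give no outside reference. In 82 of the 269 groups a count of 0 left no ratio of gap to flanks. At an unadjusted p under 0.05 the gap was higher in 10 groups (background 3.72%) and lower in 1 (background 0.372%); 1 further group at this p had no ratio. The group that passed lies on chromosome 14. Its gap, from 117110158 to 117117447, held 153 reads of the ChIP and 59 of the input over 7290 bp (fold 2.89, 2.13 to 3.98). Its outer flanks held 74 and 72 (fold 1.15, 0.818 to 1.61), which gives a ratio of 2.52 (1.58 to 4.02; adjusted p = 0.0144, Fisher's exact test). The left peak held 45 and 17 (fold 2.95, 1.66 to 5.50), so the gap was as enriched as that peak within counting error. The right peak, with 214 and 30, stood higher (fold 7.96, 5.41 to 12.1).

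**Figure D5:**
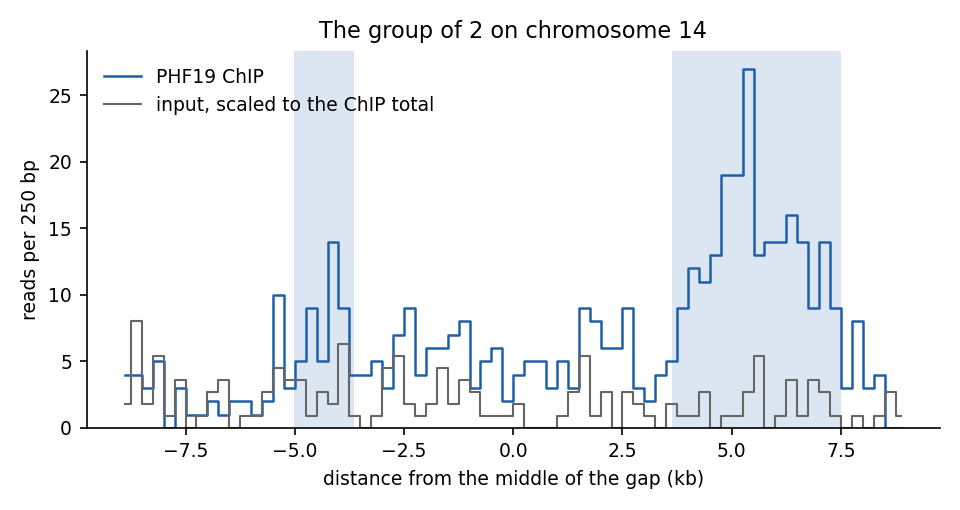
Reads per 250 bp along the group of 2 on chromosome 14, by distance (kb) from the middle of its gap, for the PHF19 ChIP and for the input scaled to the ChIP total; shaded spans are the authors' peaks. ChIP reads stay above the scaled input over most of the 7290 bp between the peaks and fall to its level outside them on the left.

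The next-ranked groups did not pass. On chromosome 4, the gap from 97268319 to 97269439 held 30 reads of the ChIP and 6 of the input and its flanks 12 and 13 (adjusted p = 0.595, Fisher's exact test). On chromosome 13, the gap from 114111206 to 114113953 had a fold of 2.30 (1.48 to 3.66) and its flanks 0.952 (0.559 to 1.61). On chromosome 2, the gap from 94043002 to 94044563 had 4.65 (1.86 to 13.9) against 1.24 (0.717 to 2.14), and on chromosome 5, from 32409710 to 32412444, it had 1.99 (1.28 to 3.15) against 0.942 (0.595 to 1.48). In all 4 the flanks were near the input level, and the depth of single gaps limits the test.

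The side of a gap next to the stronger peak and the other side did not differ beyond counting error. Divided at the middle, the gaps of all groups held 8506 ChIP and 5227 input reads next to the peak of higher fold, a fold of 1.82, and 8512 and 5083 reads next to the other peak, a fold of 1.87. The ratio was 0.972 (0.925 to 1.02), an interval that holds 1. Ordered by the authors' score, which served only for ranking here, the ratio was 1.01 (0.960 to 1.06). In gaps of 4 to 7 kb alone it was 0.903 (0.828 to 0.985) by fold and 1.01 (0.929 to 1.10) by score. The order of the peaks by fold often did not repeat between parts of the reads, as shown above, so these ratios set no firm limit on a difference between the sides.

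Long gaps were more enriched in groups of 3 and 4 than in groups of 2. In gaps of 4 to 10 kb the fold was 1.90 (1.81 to 2.003) in the 42 gaps of groups of 3 or 4 and 1.42 (1.36 to 1.48) in the 47 gaps of groups of 2, a ratio of 1.34 (1.26 to 1.43). Without groups of raised input it was 1.25 (1.16 to 1.34). These gaps had median lengths of 5397 and 6082 bp. In gaps of 1 to 4 kb the ratio was 1.12 (1.03 to 1.22). The peaks beside the long gaps also differed. Beside gaps of 4 to 7 kb their pooled fold was 3.88 in groups of 2, 4.46 in groups of 3 and 4.09 in groups of 4. Beside gaps of 7 to 10 kb it was 3.20 in groups of 2 and 4.26 in groups of 4. Gaps of that length numbered 19 in groups of 2, 1 in groups of 3 and 8 in groups of 4. Group size was not separated from peak strength and gap length, and the comparison was chosen after the data were seen.

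Gap folds just inside and just outside the joining distance were close, though the peaks beside the gaps differed. Gaps of 8 to 10 kb between any neighbours of the list, 25 in number, had a fold of 1.41 (1.34 to 1.48), and the 32 gaps of 10 to 12 kb had 1.34 (1.29 to 1.40). Their peaks had median folds of 3.09 inside and 3.51 outside, and median widths of 1490.5 and 1820 bp. The longest gaps inside the limit, of 9763 bp on chromosome 2 and 9734 bp on chromosome 11, had folds of 1.10 (0.830 to 1.45) and 0.998 (0.746 to 1.33). The shortest outside it, of 10076 bp on chromosome 15 and 10117 bp on chromosome 8, had 1.36 (1.10 to 1.70) and 1.33 (1.05 to 1.69).

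Reads of the member peaks were also checked for balance between strands. In the ChIP, 4 of the 990 peaks were out of balance (exact binomial test, Benjamini-Hochberg over 3445 peaks, background 1.02%), and in the input 0 of 990 (background 0.116%). None of the regions named above other than the wide peak on chromosome 8 was among the 4.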

How the data were processed

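Per the submitters' processing notes, reads were aligned to mm8 with Bowtie; version and handling of multiple matches: not given in the sources used here. The authors deposited the aligned reads, 42 bases long, by position and strand. Per the file headers the peak list is MACS output; the score of a peak is taken from the authors' list and only ranks peaks. Read counts were made here. One read was kept per position and strand, leaving out 8.38% of the ChIP and 7.33% of the input. Each 5′ end was moved inwards by 54 bp, from the strand lag of 108 bp in the input; the ChIP lag of 41 bp, near the read length, gave no fragment length. An input count of 0, found in 1 member peak, was set to a floor of 3 counts. Raised input means a peak at 2 times the median input per 1 kb bin of its chromosome or more. Folds have exact conditional binomial intervals, and ratios of folds exact conditional intervals, or log-normal ones where a count reached 3000. The test of neighbouring peaks and the interval of a ratio of folds were tested on simulated data.

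Regions were named by rule: per group size the 3 groups with the most ChIP reads, the 5 largest gap folds (at least 1 kb and 20 ChIP reads), the 5 groups of 2 ranked first for gap against flanks, the gaps nearest 10 kb, all without raised input, and the 3 raised-input groups with the most ChIP reads. The members and lists were chosen with earlier results of these data known. Sequences of the regions were not used here. Alternatives covered duplicates, shift, scaling, joining distance, gap edges, low counts, raised input and the order of peaks. Software was scipy 1.17.1, numpy 2.4.6, matplotlib 3.10.9 and pandas 2.3.3 under Python 3.11.15.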

Additional observations from a re-analysis of the deposited data

Results flagged for a closer look

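The comparisons above pool both strands. In the ChIP, 4 of the 990 member peaks had unequal strands, all with more plus reads (exact binomial test against the plus share of 50.6% over all peaks, Benjamini-Hochberg over 3445 peaks, background 1.02%), against 0 in the input (background 0.116%). A pair of them forms 1 group of 2 on chromosome 12. The peak at 55631602 to 55632792 had 45 of 49 ChIP reads and 14 of 17 input reads on the plus strand, and the one at 55640157 to 55641360 had 45 of 45 and 19 of 23. Both libraries had more plus than minus reads there. The others were the peak at chromosome 5, 73292350 to 73294028, with 71.1% of ChIP and 66.7% of input reads on the plus strand, and the wide peak at chromosome 8, 126423049 to 126477780, with 54.2% and 52.2%. Over the whole libraries, 54.7% of distinct ChIP reads and 53.8% of distinct input reads were on the plus strand. The ChIP share of the chromosome 8 peak was thus near that of its library, though above the 50.6% tested against.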

How the results depend on the processing

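No paired analysis was possible because each group is 1 library. For the same reason no replicate could be left out. Joined at 5 kb and 20 kb, 987 and 1098 peaks were members, and 546 in the higher-scoring part of the list joined anew. The fold of the member peaks was 3.84 when scaled by reads beyond 100 kb of every peak and 4.29 without groups of raised input. Neighbouring peaks that differ numbered 0 without those groups. The ratio of the strongest to the weakest peak, 1.40 over all groups, was 1.02 and 1.01 across strands, 1.05 and 1.03 across even and odd positions, and 1.12 for plus-strand reads per kb measured on the minus strand; in groups of 2 it turned to 0.943 and 0.922 across strands. The first number is 1 or more by construction. The gap fold, 1.84, was 1.80 unshifted, 1.79 with 200 bp next to each peak left out and 1.69 with 500 bp left out. Gaps that differ from their flanks numbered 2 unshifted, the second being the gap at chromosome 4, 97268319 (adjusted p = 0.0411, Fisher's exact test). The ratio of gap to flanks over all groups of 2 stayed between 1.17 and 1.198 under its 6 alternatives, with intervals above 1; by class, the interval reached 1 in gaps under 0.5 kb without raised input and in gaps of 1 to 2 kb with 500 bp left out. With 500 bp left out, gaps under 1 kb hold no bases. Among the other alternatives for named regions, 78 stayed within the counting interval or on their side of the threshold. Depth limits single gaps and pairs most.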

Other observations

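Within groups of 2, the side of each peak facing the gap was slightly more enriched than the side facing away. Divided at their middles, the peaks held 25732 ChIP and 7492 input reads on the inner side, a fold of 3.83, and 25081 and 7933 on the outer side, a fold of 3.53. The ratio was 1.09 (1.05 to 1.13), and 1.12 (1.07 to 1.17) without groups of raised input. With gaps under 0.5 kb it was 1.10 (1.05 to 1.16). In each class of longer gaps, the interval held 1, with ratios from 0.981 in gaps of 4 to 7 kb to 1.13 in gaps of 0.5 to 1 kb. In groups of 3 the middle peaks had a pooled fold of 4.56 and the outer ones 4.23, a ratio of 1.08 (1.02 to 1.14). In groups of 4 it was 1.25 (1.19 to 1.32) over all groups and 0.999 (0.935 to 1.07) without raised input.

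Small groups were found on all 19 autosomes and on X. Member peaks made up from 18.3% of the peaks on chromosome 1 to 42.6% on chromosome 18. Chromosome 15 had 19 groups of 2 and no larger group of 3 or 4. The nearest other stretch of peaks lay a median of 244.6 kb from a small group, 245.7 kb from an isolated peak and 62.6 kb from a stretch of 5 or more. These values were noted after the data were seen and were not tested.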
